A study of Mus musculus with 35 samples.

Results

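The Ifit genes encode the interferon-induced proteins with tetratricopeptide repeats, and 6 of them, Ifit1, Ifit2, Ifit3, Ifit3b, Ifit1bl1 and Ifit1bl2, were taken by gene symbol from the 53379 genes of a count table of pancreatic tumor-bearing mice. RNA had been sequenced from myeloid-derived suppressor cells (MDSC), which are immature myeloid cells that inhibit T cells, and from bulk tumor. The 8 C57BL6 mice had received T110299 cells, a pancreatic cancer line of a genetically engineered mouse, by injection into the pancreas, so every group carried the same tumor line, which comes from 1 donor mouse. The study's methods name female C57BL/6 mice and, in a separate sentence, wild type mice of 6 to 12 weeks matched by age and sex. Of these mice, 4 were given 50 µg poly(I:C), a synthetic double-stranded RNA complexed with the carrier PEI, intravenously on days 18 and 20 after implantation (here treated, or poly(I:C)c), and 4 were controls (here untreated), which the labels and the methods of the study describe as given glucose and its results as left untreated. PMN-MDSC (polymorphonuclear, CD11b+ Ly6Clo Ly6G+) and M-MDSC (monocytic, CD11b+ Ly6Chi Ly6G-) were sorted from spleen and tumor. Each of the 8 MDSC groups had 4 libraries, except treated splenic PMN-MDSC with 3 and treated tumor M-MDSC with 3 after a library of 10 counts was left out, and untreated bulk tumor had 4.

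IFIT proteins are among the most strongly interferon-induced proteins of vertebrate cells. They bind viral RNA, and IFIT1 in particular holds RNA whose 5′ cap lacks 2′-O methylation and so blocks its translation, while several members also bind the translation initiation factor eIF3. Their genes are switched on when RNA sensors such as MDA5 and RIG-I activate interferon regulatory factors, or when secreted type I interferon activates a transcription factor complex that holds STAT2 and IRF9, at interferon-stimulated response elements.

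All 6 genes lay side by side on chromosome 19 (GRCm38, GENCODE M21), in a stretch of 99.3 kb that began at base 34550694 and ended at base 34650009. The annotation placed 7 genes there, of which 6 were protein-coding, and these were the 6 Ifit genes. Ifit2 (34550694 to 34576419, plus strand) came first, followed by Ifit3 (34583531 to 34588731, plus), Ifit1bl1 (34592891 to 34601956, minus), Ifit3b (34607970 to 34613401, plus), Ifit1bl2 (34617049 to 34640743, minus) and Ifit1 (34640871 to 34650009, plus). No exon base was shared with another annotated gene on either strand. Ifit1bl2 and Ifit1 ran in opposite directions from a common start region. Ifit3 and Ifit3b were near copies, with 99.1% identity between their longest open reading frames, and 51.2% of the 50-base stretches of Ifit3 also occurred in Ifit3b. Counts of Ifit3 and Ifit3b are therefore uncertain as a split, since a read in a shared stretch could have been given to either gene or dropped. The other pairs were further apart, with 87.5% identity for Ifit1bl1 and Ifit1bl2, 74.1% for Ifit1 and Ifit1bl1, 74.2% for Ifit1 and Ifit1bl2, and 54.6% for Ifit1 and Ifit2.

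The start regions are shown because the 6 genes share interferon as their inducer and the data bear on how far each one moved. RefSeq promoter windows of GRCm38.p6, from 250 bases before to 50 bases after each annotated start, were searched on both strands for GAAA followed by any 2 bases and a further GAAA, the core of the interferon-stimulated response element. All 6 genes were matched by symbol, with 9 windows in all. The core occurred in 3.44% of all 32851 windows, and 3.99% of all 27025 genes had it in a window. It was found in windows of 5 of the 6 genes, and the 2 windows of Ifit2 held no match to these letters, which says nothing of sites elsewhere. The stretches of 26 bases below are read 5′ to 3′ on the strand that holds the core, and the capitals mark the core.
Ifit1 and Ifit1bl2, chr19:34640777-34640802, minus strand: tgagactgGAAAGTGAAActgaagcc
Ifit1 and Ifit1bl2, chr19:34640796-34640821, minus strand: agcagtgaGAAACTGAAActgagact
Ifit3, chr19:34583365-34583390, minus strand: cagaagagGAAAGTGAAActtaccac
Ifit3, chr19:34583399-34583424, minus strand: ggaaagtaGAAACTGAAAcagactta
Ifit1bl1, first window, chr19:34602055-34602080, plus strand: aacctacaGAAAATGAAAcctacaga
Ifit1bl1, second window, chr19:34599433-34599458, plus strand: aacttacaGAAAATGAAAcctacaga
Ifit1 and Ifit1bl2 had the same 2 matches, because their windows overlap, at 104 and 85 bases before the start of Ifit1 and at 51 and 70 bases before that of Ifit1bl2. The Ifit3b window held both stretches of Ifit3 letter for letter (chr19:34607761-34607786 and chr19:34607795-34607820), at 188 and 154 bases before its start, against 156 and 122 in Ifit3. A match of these letters is not a shown binding site.

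MDSC libraries held 793070 to 4357105 counts (median 2459368), and bulk tumor libraries 3771590 to 8886115. Levels are given as CPM, counts scaled to a common library total, and as FPKM (CPM per kilobase of summed exon length) where genes are compared with one another. A count of 3 corresponded to 0.689 to 3.78 CPM in the MDSC libraries, so lower levels were at the limit of detection. The neutrophil markers Ly6g, Csf3r, Cxcr2, S100a8, S100a9, Retnlg and Mmp8 were present in all 8 MDSC groups, with a summed level of 12359 to 20911 CPM in untreated splenic PMN-MDSC and of 1464 to 2692 CPM in untreated splenic M-MDSC. In untreated tumor PMN-MDSC this sum was 994 to 3179 CPM, below that of splenic PMN-MDSC, and macrophage markers reached 3121 to 4073 CPM there, against 327 to 1065 CPM in spleen. In sorted and bulk RNA, fewer cells of a type and less RNA per cell cannot be told apart.

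Together the 6 genes took a small part of the transcriptome without treatment and a far larger part after poly(I:C)c. Their summed level in splenic PMN-MDSC was 295 ± 66.7 CPM (SD, n = 4) in untreated and 5540 ± 2874 CPM (SD, n = 3) in treated mice, and the library with the highest sum gave 0.82% of all its counts to these genes. In tumor PMN-MDSC the sum was 109 ± 17.4 CPM (SD, n = 4) against 1412 ± 711 CPM (SD, n = 4). Splenic M-MDSC went from 175 ± 4.30 CPM to 2326 ± 627 CPM (SD, n = 4 each), and tumor M-MDSC stood at 125 ± 33.3 CPM (SD, n = 4) untreated and 1042 ± 536 CPM (SD, n = 3) treated. In each of these 4 settings the lowest treated library lay above the highest untreated one. Levels of several marker lists moved with treatment as well. In splenic PMN-MDSC the summed level of the 7 neutrophil markers was 22355 to 29177 CPM in treated libraries, above the untreated range, while the 6 macrophage markers Adgre1, Mrc1, C1qa, C1qb, C1qc and Vcam1 summed to 37.8 to 96.1 CPM, below it. The 5 monocyte markers Ly6c2, Ccr2, Csf1r, F13a1 and Fn1 went from 5864 to 8665 CPM down to 2872 to 4056 CPM in splenic M-MDSC, from 8804 to 12064 CPM down to 1974 to 4635 CPM in tumor M-MDSC, and from 4145 to 8404 CPM down to 1193 to 2660 CPM in tumor PMN-MDSC. The 4 dendritic cell markers Flt3, Zbtb46, Xcr1 and Siglech went from 10.2 to 29.2 CPM down to 0 to 1.11 CPM in splenic PMN-MDSC, with Flt3 and Xcr1 at 0 in the treated libraries and Siglech at 0 in both groups. No neutrophil, macrophage or monocyte marker was at 0 in an MDSC group, and the part of these markers in the Ifit levels was not tested.

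**Figure D1:**
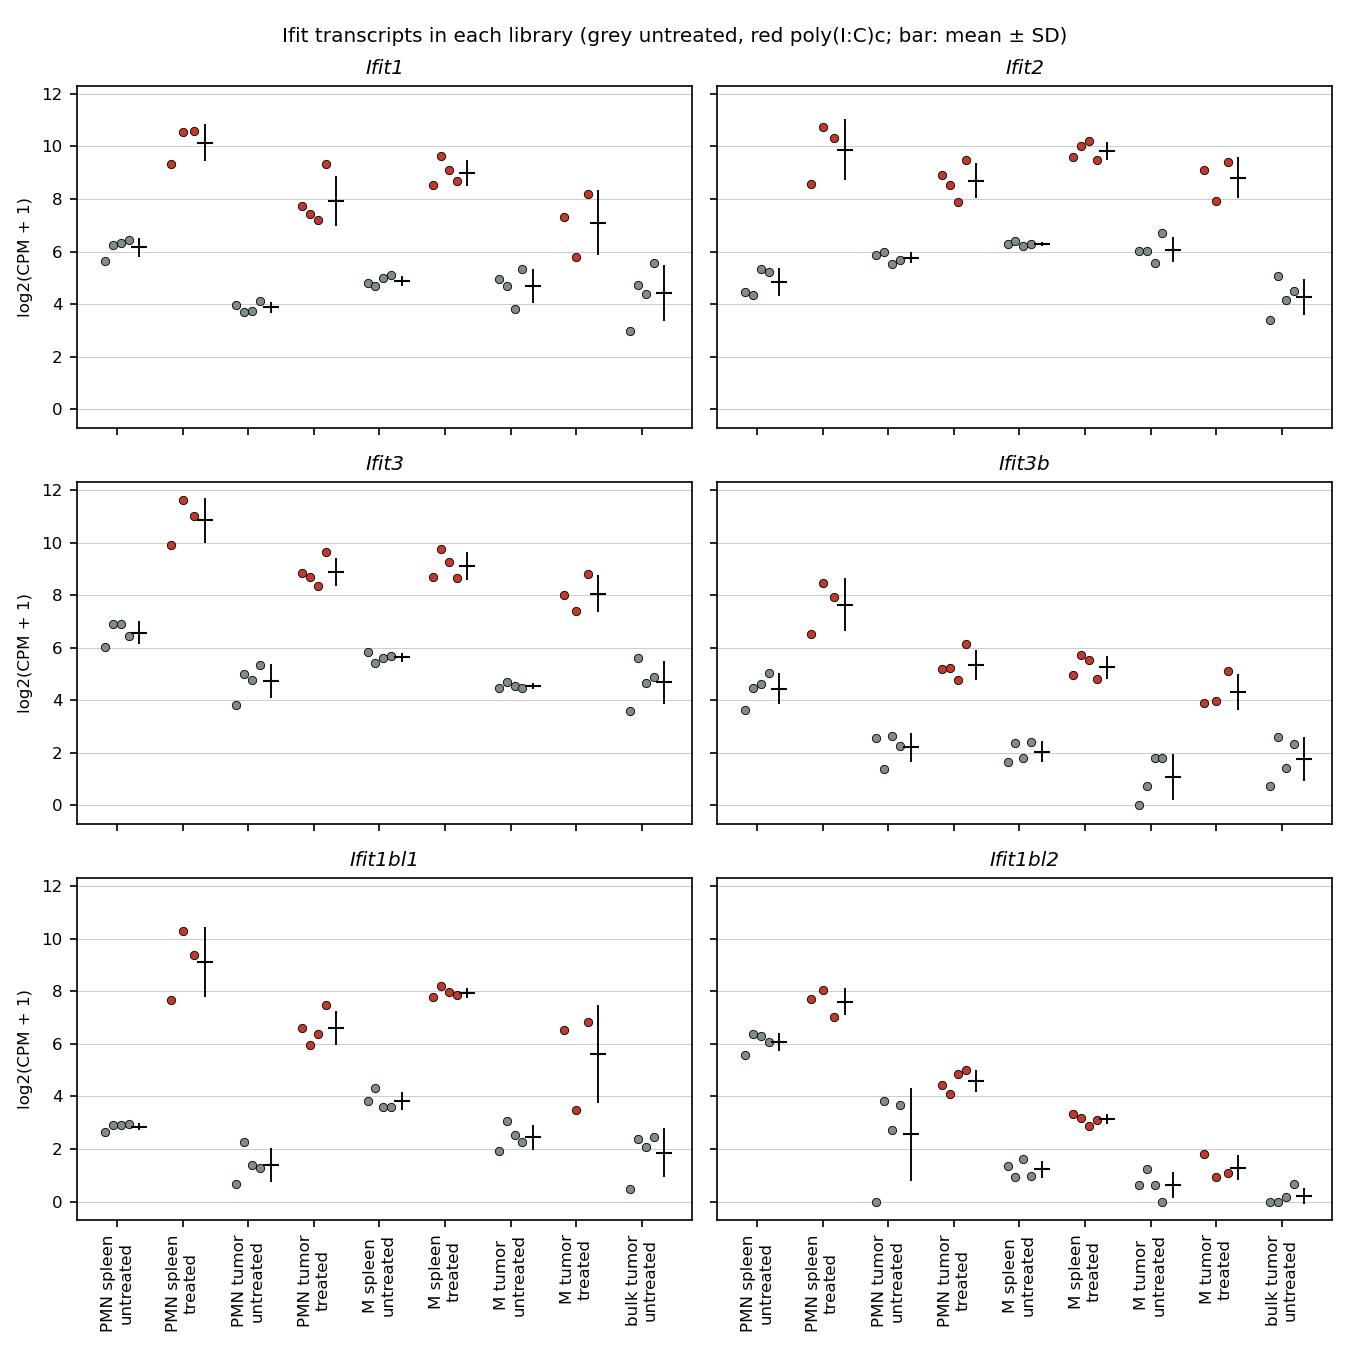
Level of each Ifit gene in every library, as log2(CPM + 1), with 1 panel per gene, 1 point per library and the mean ± SD of the group beside the points (grey untreated, red poly(I:C)c). Treated points lie above the untreated points of the same cells in every panel, except in tumor M-MDSC for Ifit1bl2, and within the panel of Ifit1bl2 every splenic PMN-MDSC library lies above every other library.

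The first question was which members changed with treatment in each cell population. edgeR's quasi-likelihood test was run on all genes that averaged 25 counts or more in the libraries of a comparison, and a gene was called when its Benjamini-Hochberg adjusted p over all genes tested was under 0.05. In splenic PMN-MDSC, 6 of 6 members tested rose, where 6.10% of all 7261 genes tested were called higher. In tumor PMN-MDSC, 5 of 6 rose (2.29% of 8308 genes). In splenic M-MDSC, 5 of 5 tested rose (9.96% of 8827 genes), and in tumor M-MDSC 4 of 5 (1.82% of 8360 genes). Ifit1bl2 did not reach the count minimum in either M-MDSC comparison. The count of tumor M-MDSC rested on single libraries, being 1 without untreated replicate 1 or 3 and 2 without untreated replicate 2, untreated replicate 4 or treated replicate 3. Some members passed the minimum only through their treated libraries, namely 1 in splenic PMN-MDSC, 3 in tumor PMN-MDSC, 1 in splenic M-MDSC and 2 in tumor M-MDSC, so the counts of called members are a description. Every treated library lay above every untreated one for 6 of 6 members in the first 3 populations and for 5 of 6 in tumor M-MDSC, while the same held for 6.25%, 7.64%, 10.4% and 12.8% of all genes tested in the order given.

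The stricter rule of the study, which asks for an adjusted p under 0.001 together with a 2-fold change, gave other counts. By edgeR it held for 0 of 6 members in splenic PMN-MDSC (0.0413% of all genes higher), 2 of 6 in tumor PMN-MDSC (0.241%), 5 of 5 in splenic M-MDSC (1.73%) and 0 of 5 in tumor M-MDSC (0.0120%). By DESeq2, the tool of the study, the same rule held for 6 of 6, 5 of 6, 5 of 5 and 5 of 5 members, and for 3.79%, 1.67%, 4.27% and 1.65% of all genes in the same order. At an unadjusted p under 0.05, edgeR had all 6 members in splenic PMN-MDSC and all 5 tested in tumor M-MDSC. Among all genes tested, 1993 in splenic PMN-MDSC and 1606 in tumor M-MDSC had such a p.

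**Figure D2:**
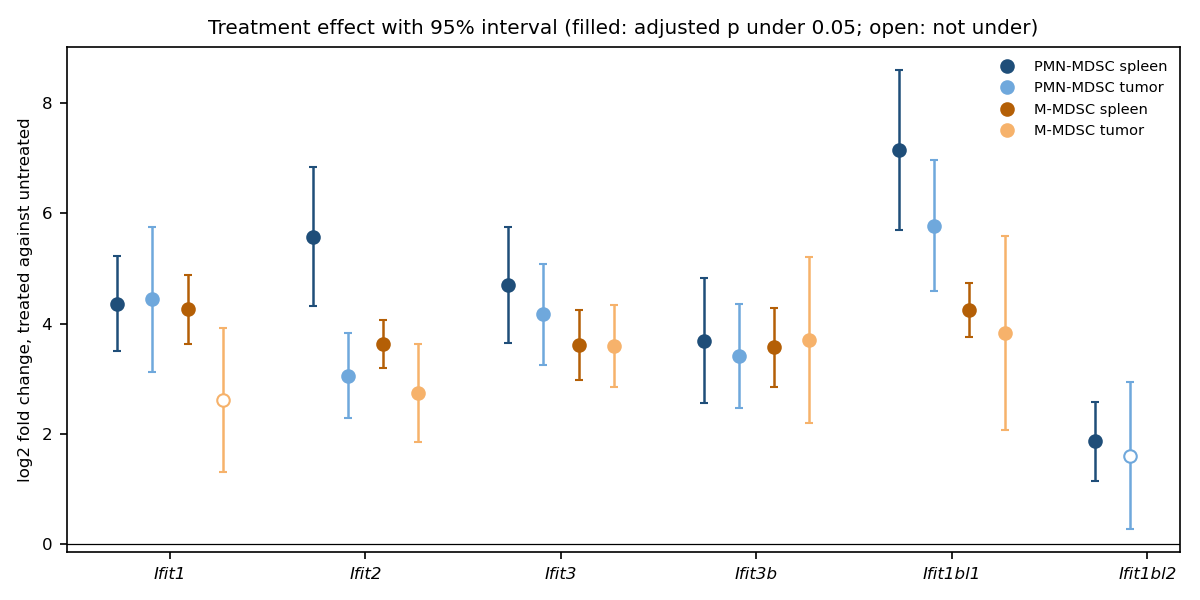
Log2 fold change of treated against untreated libraries for the 6 genes in the 4 cell populations, with 95% intervals from edgeR (filled points adjusted p under 0.05, open points not). Ifit1bl1 in PMN-MDSC has the highest values, 7.15 in spleen and 5.78 in tumor, and Ifit1bl2 the lowest, 1.87 and 1.61.

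Ifit1, whose human counterpart is the cap-sensing member, was at 48.8, 76.2, 79.6 and 86.4 CPM in untreated splenic PMN-MDSC and at 642, 1481 and 1521 CPM in treated ones. In tumor PMN-MDSC it was at 11.9, 12.4, 14.6 and 16.6 CPM untreated and at 146, 173, 210 and 647 CPM treated. The groups did not overlap in either tissue, and in tumor 1 treated library stood well above the other treated ones. Ifit1 rose 20.5-fold in splenic PMN-MDSC (log2 fold change 4.36, SE 0.377, edgeR adjusted p = 0.00126) and 21.8-fold in tumor PMN-MDSC (4.44, SE 0.584, edgeR adjusted p = 0.00343). Without the highest tumor library the log2 fold change was 3.58 (edgeR adjusted p = 5.2e-06).

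In splenic M-MDSC, Ifit1 was at 24.6, 26.9, 31 and 33.3 CPM untreated and at 373, 407, 551 and 800 CPM treated. In tumor M-MDSC it was at 13, 24.9, 30.2 and 39.1 CPM untreated and at 54.2, 160 and 294 CPM treated. Again no treated library fell among the untreated ones, but the treated tumor libraries were spread over a 5.43-fold range. Ifit1 rose 19.2-fold in splenic M-MDSC (4.26, SE 0.280, edgeR adjusted p = 2.4e-05). Its log2 fold change of 2.62 in tumor M-MDSC (SE 0.573, 95% interval 1.31 to 3.92) did not pass with edgeR (adjusted p = 0.0513). DESeq2 gave 2.58 with an adjusted p of 1.7e-04, and without the lowest treated library, which had 8766 CPM of macrophage markers against 1860 and 3896 in the others, edgeR gave 3.08 (adjusted p = 0.00436). Without treated replicate 3, the highest, it gave 1.98 (edgeR adjusted p = 0.131), without treated replicate 1 it passed (2.68, edgeR adjusted p = 0.0453), and without any 1 of the untreated libraries the edgeR adjusted p was 0.0892 to 0.134. The part of the macrophage markers in these levels was not tested.

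Ifit1bl1, an Ifit1-like gene that lies between Ifit3 and Ifit3b, started from very low levels in PMN-MDSC. In spleen its untreated libraries held 5.31, 6.44, 6.47 and 6.74 CPM and its treated ones 200, 672 and 1259 CPM. In tumor the untreated libraries held 0.607, 1.42, 1.60 and 3.79 CPM, from 1 count upward, and the treated ones 61.8, 81.6, 95 and 177 CPM. The treated libraries of spleen covered a 6.30-fold range, and even the lowest of them was far above every untreated one. The increase was 142-fold in spleen (7.15, SE 0.639, edgeR adjusted p = 0.00126) and 55-fold in tumor (5.78, SE 0.534, edgeR adjusted p = 4.8e-04). Without treated replicate 2, the highest, the log2 fold change in spleen was 6.40 (edgeR adjusted p = 0.00308). Ifit1bl1 reached the count minimum in both PMN-MDSC comparisons only through its treated libraries (untreated means of 18.2 and 3.75 counts), so its rank of 2 by log2 fold change among the genes tested in each is a description.

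In M-MDSC, Ifit1bl1 had the same direction. Splenic M-MDSC held 11, 11.2, 13.2 and 19 CPM untreated and 217, 228, 247 and 289 CPM treated, the tightest treated group of this gene. Tumor M-MDSC held 2.75, 3.78, 4.72 and 7.41 CPM untreated and 10.1, 90.2 and 114 CPM treated. The treated tumor library at 10.1 CPM was only slightly above the highest untreated library and was the same one that was lowest for Ifit1. Ifit1bl1 rose 19-fold in splenic M-MDSC (4.25, SE 0.217, edgeR adjusted p = 6.9e-06) and 14.3-fold in tumor M-MDSC (3.83, SE 0.773, edgeR adjusted p = 0.039). The call in tumor M-MDSC was lost in 5 of 7 fits without a library, those without any 1 of the untreated libraries or without treated replicate 3 (edgeR adjusted p of 0.0845 to 0.127). In tumor M-MDSC Ifit1bl1 reached the count minimum only through its treated libraries (untreated mean of 9 counts), so this call is a description.

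Ifit1bl2, the neighbour that shares its start region with Ifit1, had its highest levels in splenic PMN-MDSC, treated or not. In splenic PMN-MDSC it held 46.7, 65.5, 76.6 and 81.2 CPM untreated and 130, 208 and 262 CPM treated. In tumor PMN-MDSC it held 0, 5.59, 11.9 and 13 CPM untreated and 16, 20.8, 27.8 and 31.4 CPM treated. The treated libraries lay above the untreated ones in both tissues, yet untreated spleen lay above treated tumor. Ifit1bl2 rose 3.64-fold in splenic PMN-MDSC (1.87, SE 0.313, edgeR adjusted p = 0.00924). In tumor PMN-MDSC its log2 fold change was 1.61 (95% interval 0.27 to 2.95, edgeR adjusted p = 0.195), and it passed when all 8 MDSC groups were fitted together (1.60, edgeR adjusted p = 0.0406). In the fit of tumor PMN-MDSC alone it reached the count minimum only through its treated libraries (means of 15.8 counts untreated and 64.2 treated). In the joint fit it did so through splenic PMN-MDSC, so these results are a description.

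In M-MDSC the levels of Ifit1bl2 were lower. Splenic M-MDSC held 0.929 to 2.07 CPM untreated and 6.41 to 9.07 CPM treated, and tumor M-MDSC 0 to 1.35 CPM untreated and 0.918 to 2.53 CPM treated. Bulk tumor held 0 to 0.572 CPM, with 2 of 4 libraries at 0 counts. A floor of 3 counts corresponded to 0.714 to 1.58 CPM in untreated and 0.873 to 1.33 CPM in treated splenic M-MDSC, so only the treated libraries there were well above it. With all 8 MDSC groups in 1 fit Ifit1bl2 reached the count minimum, and edgeR gave 2.61 in splenic M-MDSC (SE 0.594, adjusted p = 0.00303) and 0.99 in tumor M-MDSC (95% interval -1.06 to 3.03, edgeR adjusted p = 0.61). It reached the minimum there only through splenic PMN-MDSC, with means of 192 counts untreated and 464 treated. The means were 3.5 and 21.8 counts in splenic M-MDSC and 1.25 and 4.33 in tumor M-MDSC. These M-MDSC results are therefore a description.

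**Figure D3:**
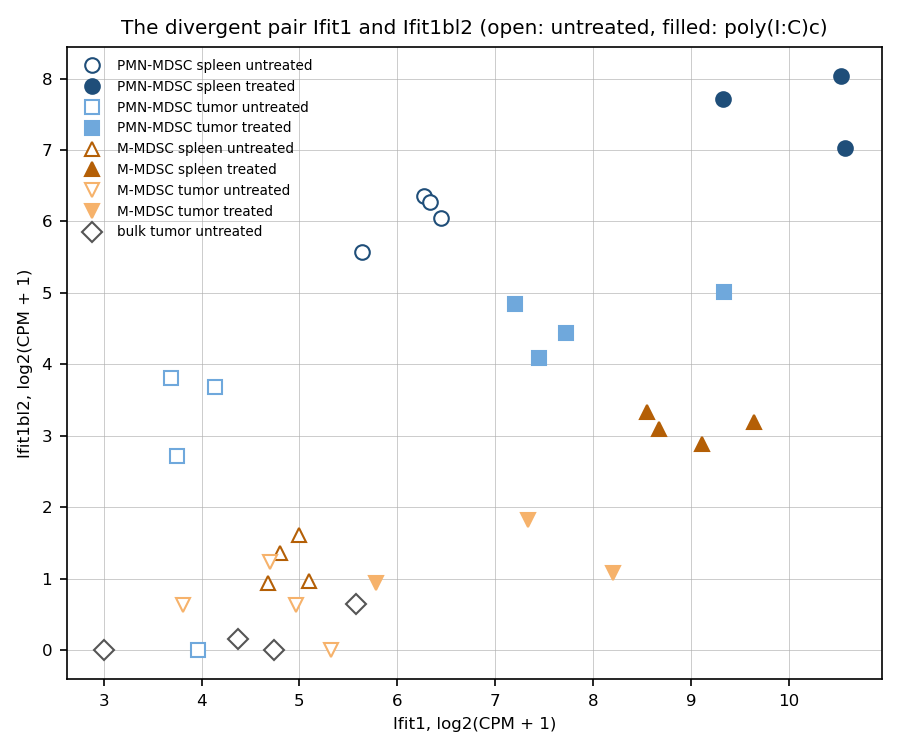
Ifit1 against Ifit1bl2 in each of the 34 libraries, both as log2(CPM + 1) (open symbols untreated, filled symbols poly(I:C)c, shapes and colors for cell type and tissue). Treatment moves the symbols to the right in all 4 MDSC populations, and PMN-MDSC lie above M-MDSC at like Ifit1 levels, apart from 1 untreated tumor PMN-MDSC library at 0 CPM of Ifit1bl2.

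Ifit2, whose human counterpart has been tied to apoptosis and to restriction of viral translation, had another pattern. Its untreated levels were 19.4, 21, 36.9 and 40 CPM in splenic PMN-MDSC, and its treated levels 380, 1282 and 1715 CPM. In tumor PMN-MDSC the untreated libraries held 45.2, 50.7, 58.2 and 62.3 CPM and the treated ones 237, 370, 476 and 721 CPM. Before treatment every tumor library thus lay above every splenic one, and after it the splenic libraries reached higher values although the groups overlapped. Ifit2 rose 47.8-fold in splenic PMN-MDSC (5.58, SE 0.554, edgeR adjusted p = 0.00195) and 8.35-fold in tumor PMN-MDSC (3.06, SE 0.350, edgeR adjusted p = 0.00111).

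Splenic M-MDSC were the most uniform group for Ifit2, at 74.1, 76.9, 77.5 and 84.1 CPM untreated and 721, 768, 1029 and 1186 CPM treated. Tumor M-MDSC held 46.6, 63.8, 64.0 and 103 CPM untreated and 245, 551 and 678 CPM treated. Treated and untreated libraries were apart in both tissues. Ifit2 rose 12.3-fold in splenic M-MDSC (3.63, SE 0.197, edgeR adjusted p = 9.8e-06) and 6.70-fold in tumor M-MDSC (2.74, SE 0.394, edgeR adjusted p = 0.0127), a call that was lost without untreated replicate 1 or 3 (edgeR adjusted p of 0.0604 and 0.0524).

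Ifit3, which in human cells strengthens RNA binding by IFIT1, had the highest group mean per length in every group except untreated tumor M-MDSC, where that of Ifit2 was higher. In untreated tumor PMN-MDSC the library values of both overlapped, with 7.65 to 22.6 FPKM of Ifit3 and 11.5 to 15.9 FPKM of Ifit2. Treated splenic PMN-MDSC held 971, 2082 and 3129 CPM of Ifit3, against 63.7, 86.7, 119 and 120 CPM in untreated ones. Tumor PMN-MDSC held 329, 409, 453 and 798 CPM treated and 13.3, 26, 30.9 and 39.4 CPM untreated. The groups were clearly apart, and Ifit3 rose 26.1-fold in spleen (4.70, SE 0.464, edgeR adjusted p = 0.00195) and 18.1-fold in tumor (4.18, SE 0.413, edgeR adjusted p = 6.2e-04). In M-MDSC it rose 12.2-fold in spleen (3.61, SE 0.284, edgeR adjusted p = 5.2e-05), from 42.3 to 56.4 CPM up to 405 to 872 CPM. In tumor M-MDSC it rose 12-fold (3.59, SE 0.327, edgeR adjusted p = 0.00216), from 20.9 to 24.9 CPM up to 167 to 443 CPM.

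Ifit3b, the near copy of Ifit3, was counted at lower levels. Splenic PMN-MDSC held 11.4, 21.4, 23.7 and 31.5 CPM untreated and 91.6, 240 and 355 CPM treated. It rose in all 4 populations, 12.9-fold in splenic PMN-MDSC (3.69, edgeR adjusted p = 0.00411), 10.7-fold in tumor PMN-MDSC (3.42, edgeR adjusted p = 0.00163), 11.9-fold in splenic M-MDSC (3.57, edgeR adjusted p = 1.1e-04) and 13-fold in tumor M-MDSC (3.70, edgeR adjusted p = 0.0255). In tumor PMN-MDSC, splenic M-MDSC and tumor M-MDSC it reached the count minimum only through its treated libraries (untreated means of 8, 9.25 and 3 counts), so these calls are a description. The call in tumor M-MDSC was lost without any 1 of the 4 untreated libraries (edgeR adjusted p of 0.0623 to 0.0744), and without untreated replicate 3 the log2 fold change was 4.58. It was kept without treated replicate 1 (3.94, edgeR adjusted p = 0.0192). Without treated replicate 2 or 3 Ifit3b did not reach the count minimum and was not tested. Ifit3b made up 18.4% ± 5.52 of the counts of both genes in untreated splenic PMN-MDSC (SD, n = 4) and 9.71% ± 0.95 in treated ones (SD, n = 3). In splenic M-MDSC it was 6.33% ± 2.48 and 6.39% ± 0.62 (SD, n = 4 each). These percentages rest on how reads of the shared stretches were assigned, which was not tested.

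**Figure D4:**
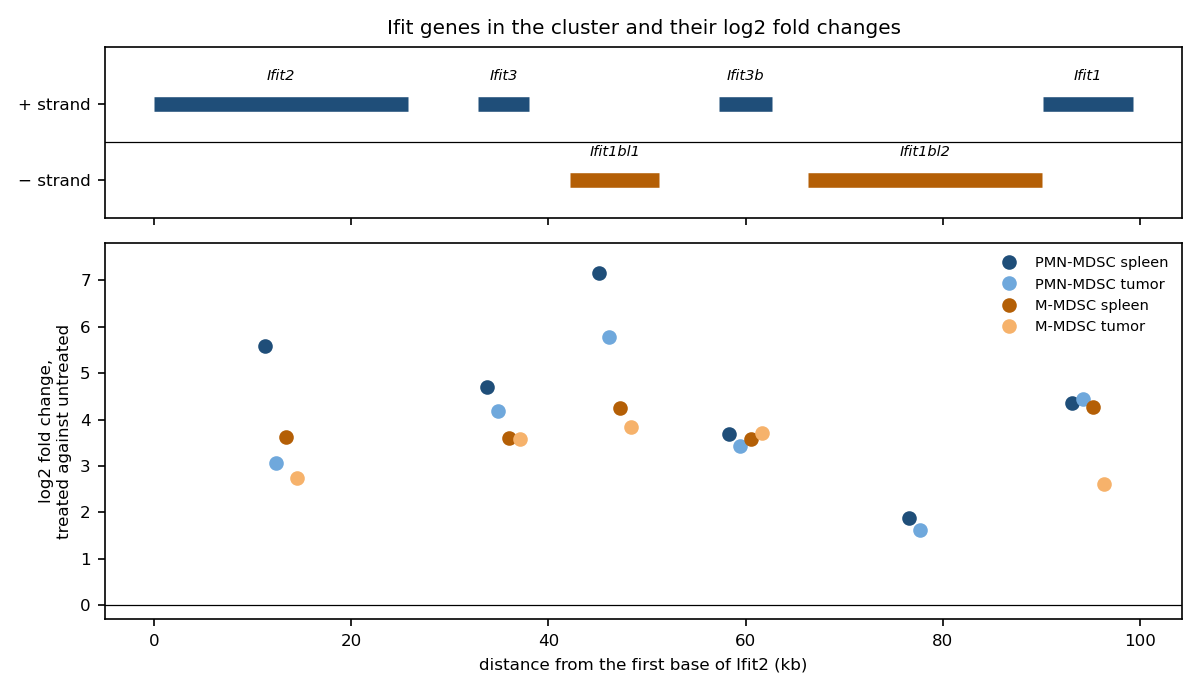
Map of the 6 Ifit genes by distance from the first base of Ifit2 in kb, with the strand of each gene, above their log2 fold changes with treatment in the 4 cell populations (points set slightly apart so that they can be seen). Neighbours differ: Ifit1bl2 has 1.87 and 1.61 in PMN-MDSC, while Ifit1, next to it, has 4.36 and 4.44.

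The protein-coding genes on either side were covered only in part. Of Fas, Ch25h and Lipa on the side of Ifit2 and Slc16a12, Pank1 and Kif20b on the side of Ifit1, 2 or 3 reached the count minimum in each comparison, while Ch25h, Slc16a12 and Pank1 reached it in none. Of those tested, edgeR called Lipa, which encodes lysosomal acid lipase, as 1 of 2 in each of 2 populations. Lipa fell in splenic PMN-MDSC (-0.96, edgeR adjusted p = 0.0196, with 5.52% of all genes called lower) and rose in tumor M-MDSC (1.55, edgeR adjusted p = 0.0308, with 1.82% called higher), where Kif20b, a kinesin gene, had 1.25 (edgeR adjusted p = 0.299). Fas, the death receptor, had 0.35 in splenic PMN-MDSC (edgeR adjusted p = 0.573) and 0.94 in tumor PMN-MDSC (edgeR adjusted p = 0.27).

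The next question was whether the size of the treatment effect differed between tissues or cell types, which was tested as the difference of log2 fold changes in a fit over all 30 MDSC libraries. Between spleen and tumor PMN-MDSC, 1 of 6 members differed (6.28% of all genes). It was Ifit2, with an increase that was larger in spleen by 2.53 on the log2 scale (SE 0.579, edgeR adjusted p = 0.00849). For Ifit1 the difference was -0.09 (95% interval -1.48 to 1.29), so an unequal response within that interval was not excluded. The comparison of spleen with tumor in M-MDSC gave 0 of 6 calls by edgeR (1.45% of all genes) and 0 by DESeq2, with 1 member, Ifit1, among the 1076 genes at an unadjusted p under 0.05. Its difference was 1.69 (95% interval 0.23 to 3.16, edgeR adjusted p = 0.289). Without 1 library it ranged from 1.25 to 2.36, the highest being without treated tumor M-MDSC replicate 3.

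Between PMN-MDSC and M-MDSC of the spleen, 2 of 6 members differed (13.4% of all genes). The effect was larger in PMN-MDSC for Ifit2, by 1.90 (SE 0.574, edgeR adjusted p = 0.0272), and for Ifit1bl1, by 2.88 (SE 0.795, edgeR adjusted p = 0.0167). Both calls were lost without treated splenic PMN-MDSC replicate 2, which held the highest Ifit2 and Ifit1bl1 levels of its group, and the differences were then 1.42 (edgeR adjusted p = 0.119) and 2.11 (edgeR adjusted p = 0.0816). The call of Ifit2 was also lost without untreated replicate 1 or treated replicate 3 of splenic PMN-MDSC or treated replicate 4 of splenic M-MDSC, with adjusted p-values of 0.0692, 0.0552 and 0.0514 from edgeR. Ifit1bl1 had untreated means of 18.2 and 3.75 counts in splenic and tumor PMN-MDSC, and of 34.8 and 9 in splenic and tumor M-MDSC. It thus reached the count minimum of this fit only through treated libraries, so its call is a description. In tumor, 0 of 6 members differed between the cell types by edgeR and by DESeq2, at 0% of all genes by edgeR, with 797 genes at an unadjusted p under 0.05. Ifit1 was the member among them, with a difference of 1.82 (95% interval 0.31 to 3.32, edgeR adjusted p = 0.422). It was 0.95 without treated tumor PMN-MDSC replicate 4 and 2.48 without treated tumor M-MDSC replicate 3.

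Without treatment, the 6 genes were not at the same level in each population. From spleen to tumor PMN-MDSC, 5 of 6 members were lower (59.8% of all genes were called in either direction). Ifit1bl2 had the largest difference of them, at -3.30 (SE 0.438, edgeR adjusted p = 7.9e-07), followed by Ifit3b at -2.65, Ifit1 at -2.56, Ifit3 at -2 (edgeR adjusted p of 1.6e-04, 1.6e-04 and 1.7e-04) and Ifit1bl1 at -1.87 (edgeR adjusted p = 0.0468). The call of Ifit1bl1 was lost in 7 of 8 fits without a library of these groups, all but that without tumor replicate 2, with adjusted p-values of 0.0504 to 0.11 from edgeR. It was also lost with upper-quartile factors (-1.70, edgeR adjusted p = 0.063). Ifit1bl1 averaged 18.2 counts in spleen and 3.75 in tumor here and reached the count minimum only through other groups of the fit, so this call is a description. Ifit2 had 0.73 (95% interval -0.11 to 1.56, edgeR adjusted p = 0.124). The sum of neutrophil markers was also lower in tumor PMN-MDSC, while monocyte markers summed to 662 to 2037 CPM in spleen and 4145 to 8404 CPM in tumor, and tumor epithelial markers to 0 to 1.49 CPM and 89.5 to 617 CPM. The part of these markers in the differences was not tested. In M-MDSC, 0 of 6 members differed between tumor and spleen by edgeR or DESeq2 (21.6% of all genes by edgeR), with 1 member, Ifit3, among the 2814 genes at an unadjusted p under 0.05. Ifit3 had a log2 difference of -0.88 (95% interval -1.72 to -0.03, edgeR adjusted p = 0.137).

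Within the untreated spleen, 5 of 6 members differed between the cell types (60.6% of all genes). M-MDSC had less Ifit1bl2, by a log2 difference of -6.09 (SE 0.540, edgeR adjusted p = 2.5e-09), less Ifit3b (-3.15, edgeR adjusted p = 1.6e-05), less Ifit1 (-1.80, edgeR adjusted p = 0.00256) and less Ifit3 (-1.47, edgeR adjusted p = 0.00235). Ifit2 went the other way and was higher in M-MDSC, by 0.95 (SE 0.402, edgeR adjusted p = 0.0425), a call that was lost in 6 of 8 fits without a library, those without PMN-MDSC replicate 1 or 2 or any M-MDSC replicate (edgeR adjusted p of 0.0557 to 0.122). In untreated tumor, 1 of 6 differed (7.61% of all genes), and it was Ifit1bl2, lower in M-MDSC (-3.54, SE 0.761, edgeR adjusted p = 0.0047). With only these 2 groups in the fit it did not reach the count minimum.

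Bulk tumor of untreated mice gave the background of the tissue. It held 7, 19.7, 25.7 and 46.8 CPM of Ifit1, 9.52, 16.7, 21.6 and 32.3 CPM of Ifit2 and 11.1, 24.1, 28.4 and 47.5 CPM of Ifit3, and 1 library was lowest for all 6 members, with Ifit1bl2 at 0 there and in another library. Of the 3 members that reached the count minimum, 1 differed from tumor PMN-MDSC (70.0% of all genes) and 1 from tumor M-MDSC (71.3%). In both cases it was Ifit2, lower in bulk tumor by a log2 difference of -1.68 (edgeR adjusted p = 2.5e-04) against PMN-MDSC and of -2.01 (edgeR adjusted p = 5.0e-05) against M-MDSC. Without bulk replicate 1, the lowest, Ifit1 was also called, higher in bulk tumor than in PMN-MDSC (1.09, edgeR adjusted p = 0.0165). Bulk tumor also held 4014 to 5921 CPM of the tumor epithelial markers Krt8, Krt18, Krt19 and Epcam, and no more than 14.1 CPM of the neutrophil markers, with Ly6g and Retnlg at 0.

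Ordered by mean level, treated splenic PMN-MDSC were the highest group for all 6 genes. For Ifit1, treated splenic M-MDSC (533 CPM), treated tumor PMN-MDSC (294 CPM) and treated tumor M-MDSC (169 CPM) followed, and each of these overlapped the group next to it. The first gap in the order of Ifit1 came between untreated splenic PMN-MDSC (72.7 CPM) and untreated splenic M-MDSC (29 CPM). Treated splenic PMN-MDSC overlapped the next group for Ifit1, Ifit2 and Ifit1bl1 and stood apart from it for Ifit3, Ifit3b and Ifit1bl2. For Ifit1bl2 untreated splenic PMN-MDSC (67.5 CPM) came next and then treated tumor PMN-MDSC (24 CPM), and neither overlapped its neighbours, while treated splenic M-MDSC (7.79 CPM) and untreated tumor PMN-MDSC (7.61 CPM) overlapped.

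The make-up of the family, as each gene's percent of the summed FPKM of all 6, also differed between populations. In untreated splenic PMN-MDSC, Ifit3 took 44.6% ± 4.61, Ifit1 22.1% ± 2.14, Ifit1bl2 16.2% ± 1.06 and Ifit2 6.07% ± 1.71 (SD, n = 4). In untreated tumor PMN-MDSC, Ifit2 took 35.8% ± 9.13 and Ifit1bl2 5.17% ± 3.84 (SD, n = 4). Ifit1bl1 took 2.29% ± 0.406 of the family in untreated (SD, n = 4) and 11.7% ± 3.69 in treated splenic PMN-MDSC (SD, n = 3), with no overlap, while Ifit1bl2 went from 16.2% to 3.12% ± 2.23. Over 24 such comparisons of treated with untreated shares, 9 had no overlap between the groups and 0 passed a two-sided exact permutation test after adjustment, the smallest adjusted p being 0.125. With these group sizes no adjusted p could have been below 0.0571, so the adjusted test could not pass and the shares are a description. At an unadjusted p under 0.05 there were 4, each at 0.0286, the smallest value that 4 against 4 libraries allow, while 4 against 3 libraries gave 0.0571 at best. They were Ifit2 (lower share) and Ifit1bl1 (higher share) in tumor PMN-MDSC, and Ifit1 (higher) and Ifit1bl2 (lower) in splenic M-MDSC.

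**Figure D5:**
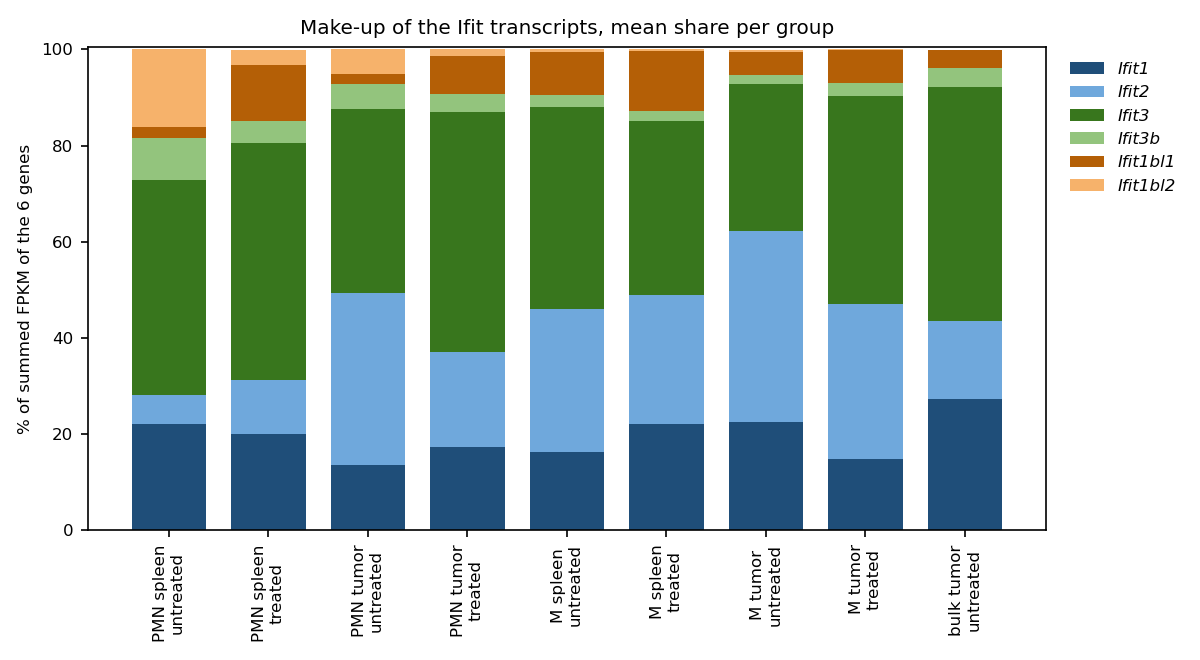
Mean percent of the summed FPKM of the 6 Ifit genes that each gene takes, with 1 stacked bar per group. Ifit3 has the largest mean part in every group except untreated tumor M-MDSC (30.6% against 39.8% for Ifit2), and Ifit1bl2 is visible as a part of 16.2% in untreated splenic PMN-MDSC.

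Likeness between members was described across the 30 MDSC libraries. Pearson's r of log2(CPM + 1) ranged among the 5 members other than Ifit1bl2 from 0.71 for Ifit2 and Ifit3b to 0.97 for Ifit1 and Ifit3, whereas Ifit1bl2 had from 0.21 with Ifit2 to 0.74 with Ifit3b, and 0.58 with its neighbour Ifit1. These values describe libraries that fall into treated and untreated groups and share 8 mice. Among 8536 genes, those most like Ifit1 were Usp18 (0.97), a protease that removes ISG15 and dampens interferon signaling, Ifit3 and Ddx58 (0.96), which encodes RIG-I. Those most like Ifit1bl1 were Usp18 (0.97), Trafd1 (0.96) and Slfn8 (0.95), and those most like Ifit2 were Ifi208 (0.99), H2-T22 (0.96) and Herc6 (0.94). Ifit3 was most like Ifit1, Ifit1bl1 (0.95) and Ddx58 (0.94), and Ifit3b most like Ifit3, Isg20 and Mov10 (0.93 each). For Ifit1bl2 the nearest were Pag1 (0.95), A530064D06Rik (0.94) and Lasp1 (0.94), none of which was among the 3 nearest of another member.

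The genes that lead to Ifit transcription were described by a list of 16 sensors, adaptors, interferon regulatory factors and receptor and STAT components. By edgeR, 5 of 13 tested rose in splenic PMN-MDSC, 6 of 15 in tumor PMN-MDSC, 6 of 14 in splenic M-MDSC and 3 of 15 in tumor M-MDSC, where 6.10%, 2.29%, 9.96% and 1.82% of all genes were called higher, and 0 fell in any of them (5.52%, 1.07%, 9.48% and 1.06% of all genes were called lower). The median log2 fold change of those tested was 0.87, 0.37, 0.15 and 0.40, against 0.01, 0.01, -0.03 and -0.00 over all genes. Irf7, which carries the amplification of the interferon response, rose in all 4, by 2.75, 3.88, 2.94 and 3.01 on the log2 scale, and so did Ddx58, by 1.65, 1.58, 1.97 and 1.51. Ifih1, which encodes MDA5, rose in 3, from 71.7 to 273 CPM in splenic PMN-MDSC (2.25, edgeR adjusted p = 0.00739), and had 0.98 in tumor M-MDSC (edgeR adjusted p = 0.0678). Stat2 rose in 3 populations, with 2.67 in splenic PMN-MDSC (edgeR adjusted p = 0.00651), and Irf9 passed the test in tumor PMN-MDSC (1.08, edgeR adjusted p = 0.0163). Whether these effects differed between populations was not tested. Ifnb1, the gene of interferon beta, did not reach the count minimum in any of the 4 comparisons.

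Feedback inhibitors, cap enzymes and the eIF3 complex completed the surroundings of the family. Of Usp18, Socs1 and Socs3, 2, 1, 2 and 0 rose in splenic PMN-MDSC, tumor PMN-MDSC, splenic M-MDSC and tumor M-MDSC (of all genes 6.10%, 2.29%, 9.96% and 1.82%), and Usp18 went from 37.8 to 471 CPM in splenic PMN-MDSC (3.94, edgeR adjusted p = 0.00118). The genes that cap and methylate RNA, Rngtt, Rnmt, Cmtr1 and Cmtr2, had 3 members tested, and 1 call, of Cmtr1, whose product adds the 2′-O methyl group by which IFIT1 tells RNAs apart. Cmtr1 rose in splenic M-MDSC (0.54, edgeR adjusted p = 0.0425), where 9.96% of all genes were called higher. Of 13 genes for eIF3 subunits, all tested, edgeR called Eif3b lower in splenic PMN-MDSC (-1.27, edgeR adjusted p = 0.0259) and Eif3f lower in splenic M-MDSC (-0.58, edgeR adjusted p = 0.0291), and the medians of the list were -0.42, -0.10, -0.05 and -0.26 in the same order of populations, against 0.01, 0.01, -0.03 and -0.00 over all genes. With 1 of 13 lower in each of these 2 populations, the count stands beside 5.52% and 9.48% of all genes called lower there.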

How the data were processed

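RNA of sorted MDSC and of bulk tumor was sequenced after ribosomal RNA depletion and 13 cycles of PCR, with no molecular identifiers described. The authors deposited raw read counts per gene for 35 libraries. Per the methods, reads were mapped to mm10 with ContextMap and BWA, allowing at most 4 mismatches, and fragments were counted by strand with featureCounts of Subread 1.4.6-p3 (submitters' processing notes) on Gencode v16. How reads that fit several genes were counted is not given in the sources used here.

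Each column was given its group from what its name says of cells, organ and treatment. The names carry a running number that no source used here ties to the mouse numbers of the labels, so replicate numbers are names only. The library with 10 counts was left out, which left 34. Within groups, the 48 pairs of libraries differed by a chi-square per degree of freedom of 6.19 to 49.5, so none was treated as a repeat of another. The libraries were not tied to mice here, which would rest on the order of columns, and cell types and tissues came from the same 8 mice, so comparisons between them treat paired samples as independent.

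Ensembl identifiers were looked up in GENCODE M21 (GRCm38) for symbol, position and exon length (53274 matched, with all 6 members). edgeR 4.0.16 (R 4.3.3) was run on the counts with TMM factors and robust quasi-likelihood F-tests, two-sided, on genes averaging 25 counts or more. Treatment effects were fitted on their own groups, differences of effects and untreated comparisons over all 8 MDSC groups, and bulk tumor with untreated tumor MDSC. Called means an adjusted p (Benjamini-Hochberg, all genes tested) under 0.05. The SE is the log2 fold change divided by the square root of F. FPKM was computed from the counts, and shares were compared by exact permutation tests in scipy 1.17.1. All 6 members are named, and for each the 3 genes of highest Pearson r of log2(CPM + 1, a pseudocount of 1). Members and lists were chosen with earlier results of these data known. Some alleles of the tumor line, 1 gene of a list and 1 marker list are not reported here. The code was tested on simulated data. The alternatives were DESeq2 1.42.0, RLE and upper-quartile factors, no count minimum, no robust estimates, other sets of groups in the fit, the threshold of the study and 72 fits without 1 library. DESeq2 with that threshold was added after seeing the data. Intervals and limits cover counting error and the spread between libraries only.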

Additional observations from a re-analysis of the deposited data

Results flagged for a closer look

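In treated tumor PMN-MDSC, Ifit1 had 1 library at 647 CPM against 146 to 210 CPM in the other 3, the only such gap in 42 groups of 4 libraries checked (chance gives about 1 in 20), and this library was the highest of its group for all 6 members. It also had the highest sum of neutrophil markers, 9016 CPM against 2851 to 5099, and the lowest of macrophage markers, 2699 CPM against 3344 to 5720, and their part was not tested.

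The effect of poly(I:C)c on Ifit2 was larger in splenic than in tumor PMN-MDSC, with a difference of log2 fold changes of 2.53 (edgeR adjusted p = 0.00849), and larger in splenic PMN-MDSC than in splenic M-MDSC, with 1.90 (edgeR adjusted p = 0.0272). For Ifit1bl1 the effect was larger in splenic PMN-MDSC than in splenic M-MDSC, with 2.88 (edgeR adjusted p = 0.0167). These were 3 of 24 differences tested, 1 in the first comparison, where 6.28% of all genes were called, and 2 in the second, where 13.4% were. Without treated splenic PMN-MDSC replicate 2 both calls of the second comparison were lost (edgeR adjusted p of 0.119 for Ifit2 and 0.0816 for Ifit1bl1), and that of Ifit2 was lost in 4 of 15 fits without a library. Ifit1bl1 reached the count minimum of this fit only through treated libraries, so its call is a description.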

How the results depend on the processing

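Of 599 member values under another setting, 546 kept their direction and their side of the threshold, 26 lost a call, 20 gained one and 7 reversed. Of 763 values without 1 library the numbers were 689, 29, 3 and 42. At the threshold of the study, edgeR called 0 members in splenic PMN-MDSC, 2 in tumor PMN-MDSC and 0 in tumor M-MDSC, 0 for the spleen-tumor difference in PMN-MDSC and 0 for the cell-type difference in spleen, 2 between untreated splenic and 0 between untreated tumor cell types. DESeq2 at that threshold, chosen after seeing the data, called 0 for the cell-type difference in spleen. With no count minimum there was 1 call for the spleen-tumor difference in M-MDSC, 2 for the cell-type difference in tumor, 2 for untreated M-MDSC tumor against spleen, 3 between untreated tumor cell types and 3 for bulk tumor against PMN-MDSC. With only the groups compared in the fit there was 1 for untreated M-MDSC and 0 between untreated tumor cell types. No paired analysis was possible because the columns do not carry the mouse numbers of the labels, and their order was not used in place of these.

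Reversals were of values near 0, none of them called in the fits reported. Upper-quartile factors gave -0.02 for Ifit3 (spleen-tumor difference, M-MDSC), -0.04 for Ifit1 and -0.00 for Ifit3b (cell-type difference, spleen), and -0.05 for Ifit1 and -0.08 for Ifit2 (untreated M-MDSC). No count minimum gave -0.04 for Ifit1 and -0.00 for Ifit3b in the cell-type difference in spleen. Upper-quartile factors also moved the median of all genes, to -0.16 in splenic PMN-MDSC (0.01 with TMM) and to 0.34 between the untreated splenic cell types.

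Without 1 library, the count of called members ranged from 1 to 5 in tumor M-MDSC, from 0 to 2 for the cell-type difference in spleen and from 1 to 2 for bulk tumor against PMN-MDSC. The spleen-tumor difference in PMN-MDSC ranged from -0.33 to 0.77 for Ifit1, from -0.23 to 0.71 for Ifit3b and from -0.12 to 0.62 for Ifit1bl2. In M-MDSC it ranged from -0.23 to 0.52 for Ifit3, from -0.98 to 0.47 for Ifit3b and from -0.08 to 0.98 for Ifit1bl1. The cell-type difference ranged in spleen from -0.16 to 0.40 for Ifit1 and from -0.43 to 0.51 for Ifit3b, and in tumor from -0.11 to 0.61 for Ifit2 and from -1.19 to 0.27 for Ifit3b. Untreated M-MDSC, tumor against spleen, ranged from -0.13 to 0.38 for Ifit1 and from -0.18 to 0.25 for Ifit2. Bulk tumor ranged from -0.65 to 0.20 for Ifit3 against PMN-MDSC, and from -0.76 to 0.22 for Ifit1 and -0.33 to 0.53 for Ifit3 against M-MDSC. The adjusted tests of shares could not pass with these group sizes, under any alternative. The cause of these shifts was not tested. In tumor M-MDSC, untreated libraries held 0 to 2 counts of Ifit1bl2, which limits the precision of its effect there.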
